A study of Mus musculus with 37 samples.

Results

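A set of 37 genes of the non-collagen extracellular matrix and the TGF-beta response was followed in mouse primary astrocytes: matrix glycoproteins, cross-linking enzymes, elastic fibre and basement membrane components, proteoglycans, and the ligands, receptors and feedback inhibitors of TGF-beta. The members were chosen by name, and each was read from the array probe set that carries only its symbol and had the highest mean over all arrays. Of the 37 members, among 18193 genes with such a probe set, 34 had one. No probe set named Spp1 or Fbn1 alone was listed, and the probe sets for Loxl2 carry several symbols, so these 3 genes have no values here. Of the 34, 31 passed the filter on dim probe sets and were tested. The elastin gene Eln (above background on 3 arrays), the NG2 proteoglycan gene Cspg4 (1 array) and the aggrecan gene Acan (0 arrays) were not.

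Cultured astrocytes lay down a matrix of fibronectin, tenascins, basement membrane glycoproteins and hyaluronan-binding proteoglycans, and brevican and neurocan belong to the matrix typical of the brain. TGF-beta ligands are secreted in a latent form that matrix proteins store and thrombospondin 1 can activate. The active ligand signals through the type II and type I receptors to SMAD transcription factors, which induce matrix genes such as Tgfbi and Postn and also the inhibitors Smad7 and Skil.

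The study asked what stable overexpression of Cdca7l, a MYC-interacting nuclear protein, does to expression in astrocytes of both sexes and of strains 129S4/SvJae (129) and C57BL/6J (B6). All cells were isolated from newborn mice, grown in serum, and nucleofected with a hygromycin-selectable plasmid that carried CDCA7L or was empty. Each of 37 RNA samples was hybridised to 1 array. The groups were 129 males with Cdca7l (5 arrays) and with vector (5), 129 females with Cdca7l (4) and with vector (4), B6 males with Cdca7l (5) and with vector (5), and B6 females with Cdca7l (4) and with vector (5). The labels number clones, such as 3(1), and the same number often stands on a Cdca7l and a vector sample of 1 strain and sex, which gives 22 strain, sex and clone labels in all. Animals per isolate are not stated, and the serum in the medium is common to every group.

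The values are log2 intensities, with a background level of 3.19, the median of the whole table. Cdca7l itself averaged 12.40 ± 0.401 with the Cdca7l plasmid and 8.53 ± 0.559 with vector in 129 males (SD, n = 5 each; exact two-sided permutation test, p = 0.00794), and it was also higher with the Cdca7l plasmid in the other 3 strain and sex groups (exact p between 0.00794 and 0.0286). Of 14 astrocyte markers 12 were above background on every array, among them Gfap (10.02 to 13.97) and Aqp4 (11.33 to 14.50). So were the fibroblast markers Col1a1 and Col1a2, the pericyte marker Pdgfrb, the oligodendrocyte lineage markers Olig1 and Olig2, and the neuron marker Stmn2. Other markers of these cell types, such as Mag and Rbfox3, were at background on every array. The check thus goes with the astrocyte label but does not show that the cultures held astrocytes alone. 129 female vector 1(3) was dim, with an upper quartile of 8.36 where the remaining 36 arrays had 9.03 to 9.51, and B6 female vector 5.1(1) read Xist at 2.40 and the Y-linked Eif2s3y at 11.91, against its sex label. Both arrays stayed in, and results that rest on them are also given without them. The main tests count every array as a replicate. Arrays that share a clone label correlated (0.409 within a label), so errors of the strain and sex comparisons may be too small. Fits with the label as a random block are given as an alternative. A lower value in a bulk RNA sample can mean fewer cells of a type or less RNA per cell, and these cannot be told apart.

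Promoter sequence is shown for the 5 members whose strain difference passed the test and whose RefSeq window ends within 50 bases of the outermost annotated start of the gene, so that a reader can see which letters precede genes that moved. Each line holds the 250 bases before the transcription start in RefSeq's GRCm38.p6 assembly, 5′ to 3′ on the gene's own strand. Capitals mark matches to GGGCGG or TATAAA on either strand, as the letters read on the strand shown. The assembly is from C57BL/6J, so differences of the 129 genome are not in these lines.
Tgfbi chr13:56609336-56609585 (plus strand): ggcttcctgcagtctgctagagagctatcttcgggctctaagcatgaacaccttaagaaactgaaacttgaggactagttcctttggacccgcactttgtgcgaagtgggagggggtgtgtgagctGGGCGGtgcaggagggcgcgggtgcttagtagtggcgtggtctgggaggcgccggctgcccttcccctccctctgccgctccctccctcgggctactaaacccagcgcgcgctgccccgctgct
Postn chr3:54359017-54359266 (plus strand): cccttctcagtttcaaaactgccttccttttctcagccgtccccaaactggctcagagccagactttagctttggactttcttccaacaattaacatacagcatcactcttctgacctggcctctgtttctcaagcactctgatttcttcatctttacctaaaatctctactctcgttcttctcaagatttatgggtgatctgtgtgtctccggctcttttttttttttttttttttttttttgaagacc
Nid1 chr13:13437352-13437601 (plus strand): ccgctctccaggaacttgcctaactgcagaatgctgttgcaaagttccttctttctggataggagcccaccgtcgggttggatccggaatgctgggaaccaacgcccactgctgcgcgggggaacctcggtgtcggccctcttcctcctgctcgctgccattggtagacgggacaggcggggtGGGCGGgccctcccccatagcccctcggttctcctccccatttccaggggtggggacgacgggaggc
Bgn chrX:73483351-73483600 (plus strand): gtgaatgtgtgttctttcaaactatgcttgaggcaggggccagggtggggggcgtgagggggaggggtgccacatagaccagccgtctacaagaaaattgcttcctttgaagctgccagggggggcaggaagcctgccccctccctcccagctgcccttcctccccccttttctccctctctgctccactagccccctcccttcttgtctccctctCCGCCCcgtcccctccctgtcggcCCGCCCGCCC
Ncan chr8:70120845-70121094 (minus strand): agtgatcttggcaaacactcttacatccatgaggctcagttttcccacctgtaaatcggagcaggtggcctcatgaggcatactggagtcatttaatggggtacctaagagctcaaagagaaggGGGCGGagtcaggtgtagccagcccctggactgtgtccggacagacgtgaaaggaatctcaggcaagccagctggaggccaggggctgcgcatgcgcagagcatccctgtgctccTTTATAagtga

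Tgfbi holds GGGCGG 124 bases and Nid1 67 bases before the start. Ncan holds it 126 bases before the start, with TATAAA on the other strand 11 bases before the start, and Postn holds neither. Bgn has 3 GGGCGG matches on the other strand, at 34, 10 and 6 bases before the start, of which the last 2 overlap. Windows were found for 23 of the 37 members among 32851 windows of the same length. GGGCGG, the core letters bound by SP factors, was in 15 of these 23 and in 32.7% of all windows, and TATAAA was in 5 of 23 and in 12.4% of all. CAGACA, which contains the SMAD-binding letters, was in 6 of 23 (Cspg4, Fbln1, Sparc, Spp1, Tgfb2 and Thbs2) and in 17.1% of all. The palindrome GTCTAGAC and the AP-1 letters TGANTCA were in 0 of 23, against 0.167% and 6.75% of all. Members' windows had a median GC content of 59.2%, against 52.4% over all windows. All matches were counted on both strands and describe these letters only.

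**Figure D1:**
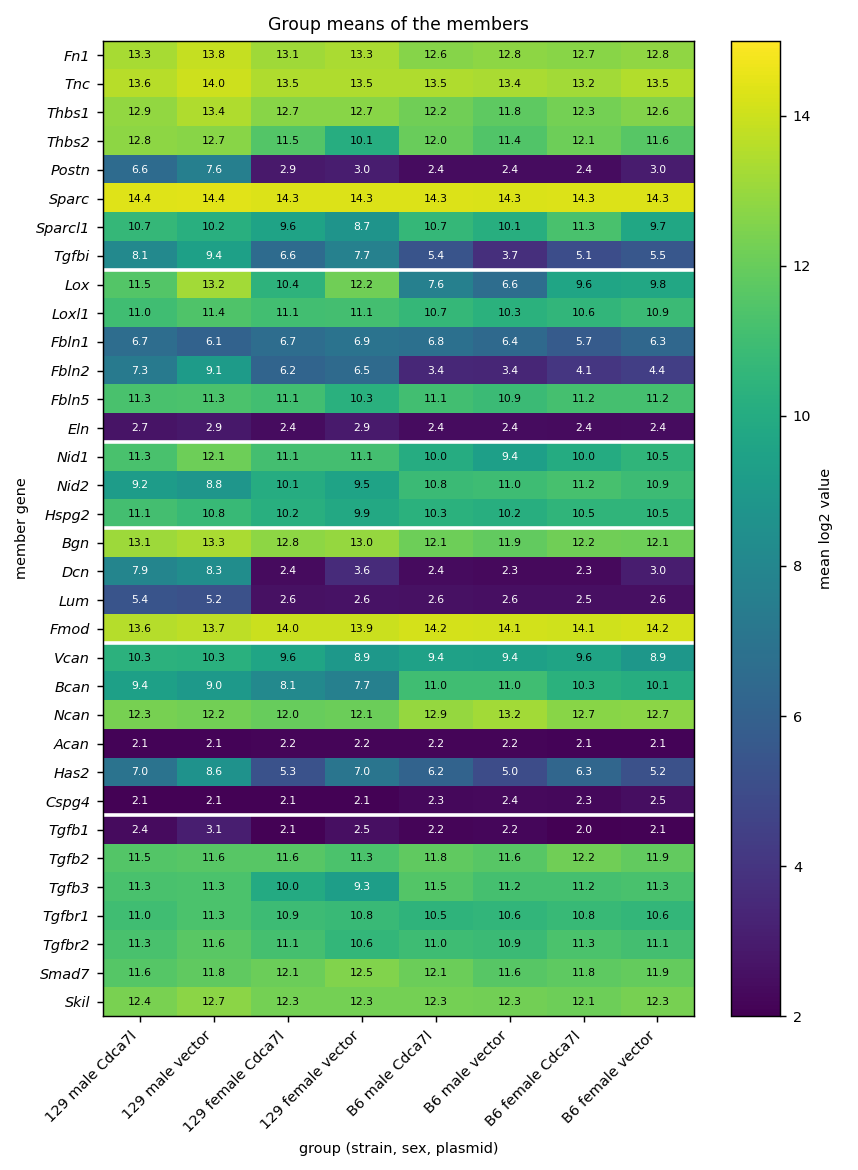
Mean log2 intensity of each member with a probe set (down the page, ordered by role) in the 8 strain, sex and plasmid groups (across). Colour and number give the group mean, to be read across a gene's line and not between genes. Dcn, Postn and Lum stand out in both 129 male groups, while Sparc looks alike in all 8.

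Spread within groups differed widely between members. Sparc, the collagen-binding glycoprotein osteonectin, had a within-group SD of 0.080 log2 units, and only 0.32% of tested probe sets had a smaller one. At the other end were Dcn (3.26), which encodes the small leucine-rich proteoglycan decorin, Lox (2.84), which encodes the enzyme that cross-links collagen and elastin, and Postn (2.60), which encodes periostin. The median within-group SD was 0.86 over the 31 tested members, against 0.64 over all tested probe sets. The heat map of group means shows where this spread lies.

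Dcn, Postn and Lum were near background in most cultures and bright in a few. In 129 males Dcn read 14.18 in Cdca7l 3(1), 14.30 in Cdca7l 5(1) and 6.56 in Cdca7l 3(2), with 2.33 in Cdca7l 3(3) and 2.31 in Cdca7l 1(4). With vector it read 14.06 in 3(1), 14.11 in 5(1) and 8.84 in 5(2), with 2.38 in 3(3) and 2.35 in 3(2). Clones 3(1) and 5(1) were thus bright with either plasmid, and the remaining clones spread from background to intermediate values. Postn followed the same clones: 11.96 in Cdca7l 3(1) and 12.11 in Cdca7l 5(1), and 11.36 in vector 3(1) and 11.22 in vector 5(1), with 10.27 in vector 5(2). The other 129 male arrays had Postn between 2.44 and 3.53. Lum, which encodes the proteoglycan lumican, read 9.27 and 9.87 in Cdca7l 3(1) and 5(1), and 9.12 and 9.17 in vector 3(1) and 5(1). On the other 33 arrays Lum was at most 2.93, which is below background.

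On the 4 arrays of 129 male clones 3(1) and 5(1), 11 of the 34 members lay above all other 33 arrays, and Fmod, which encodes fibromodulin, lay below all of them (12.48 to 13.37, against 13.37 to 14.42). Of all 25579 tested probe sets, 2.37% lay above and 0.571% below on these arrays, and the 12 members are all among the 31 tested. The 11 were Fn1, Tnc, Thbs2, Postn, Dcn, Bgn, Lum, Vcan, Tgfbi, Tgfbr2 and Nid1. Dcn, Postn and Lum are the genes by which these arrays were picked, and Lum passed the filter through these 4 arrays alone. The count of 11 thus describes the arrays and is no test against the share of all probe sets. Of the 12 fibroblast and meningeal markers measured, 7 also lay above all other arrays there, among them Col3a1 (13.11 to 13.38, against at most 11.05), Tbx18 (9.76 to 10.79, at most 7.77) and Aldh1a2 (10.86 to 11.48, at most 5.38). Another, Slc6a13, was at background on all 37 arrays. The marker list's score, its mean deviation from each gene's average, was 3.48 to 3.72 on these 4 arrays and -1.78 to 1.17 on the others. Astrocyte marker scores on the 4 arrays (-0.60 to 0.14) lay within the range of the others (-2.47 to 0.88). Endothelial marker scores were 0.61 to 1.25 on the 4 arrays and at most 0.78 on the others. The part of these markers' cells in the members' values was not tested. These 4 arrays and 3 markers were singled out after their values were seen, so results that rest on them are given with and without them.

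**Figure D2:**
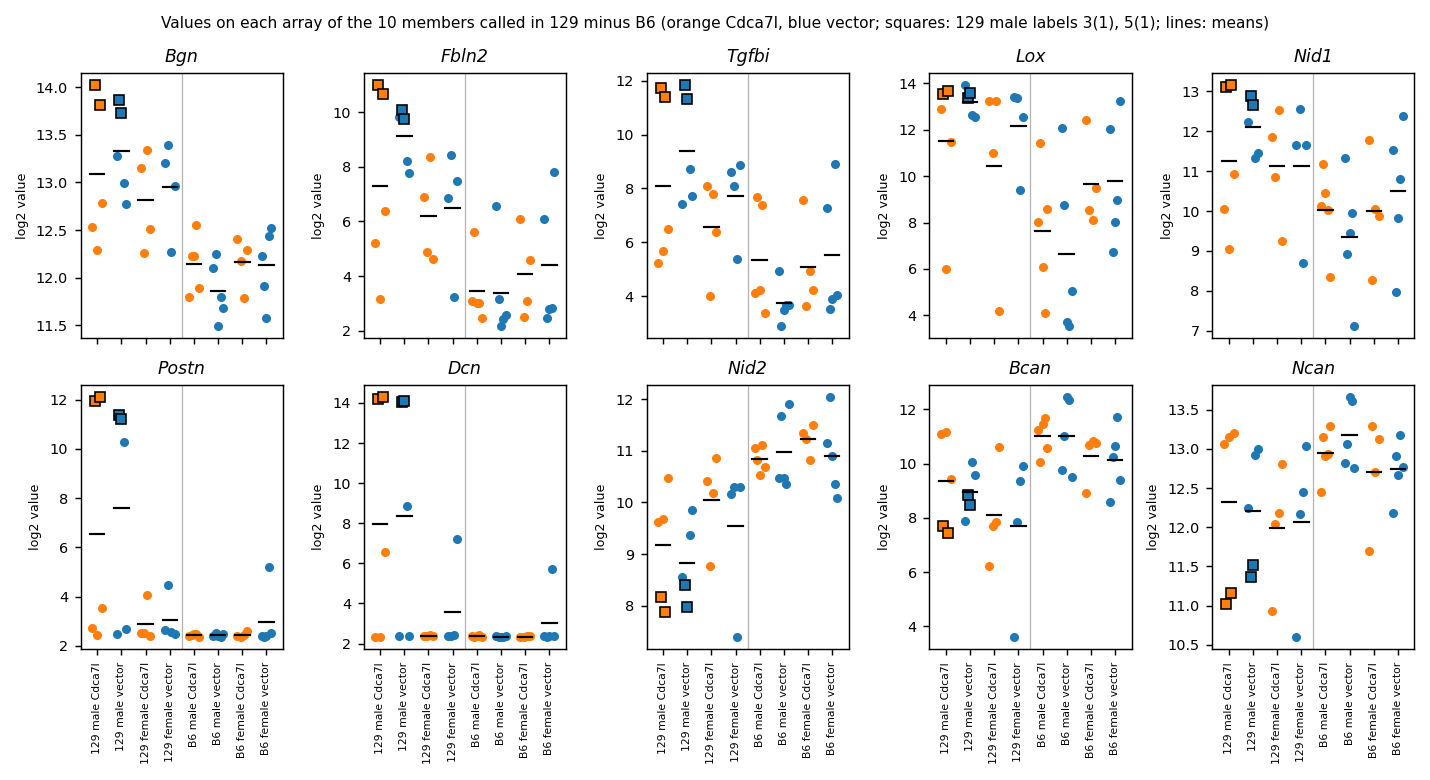
Log2 intensity on every array of the 10 members called in the strain comparison (1 panel each, own axis), by strain, sex and plasmid (across), with orange points for Cdca7l, blue points for vector, lines for group means and squares for 129 male clones 3(1) and 5(1). Bgn and Nid2 separate the strains in most arrays, while Dcn and Postn are brightest on a few 129 male arrays. A few arrays labelled female have intermediate values, up to 7.22 for Dcn and 5.19 for Postn.

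The strain comparison asked how 129 astrocytes differ from B6 astrocytes, averaged over sex and plasmid. Of the 31 tested members, 10 passed an adjusted p of 0.05 (limma, Benjamini-Hochberg over 25579 probe sets): 7 were higher and 3 lower in 129. Among the 7, Postn and Dcn met the filter on dim probe sets only through 129 arrays. Without that filter both missed the threshold (limma adjusted p = 0.057 and 0.059). The members called were then 8, with 5 higher and 3 lower, and 5432 probe sets were called in all. Of all tested probe sets, 25.2% passed, 10.6% higher and 14.6% lower in 129, so the members' count is not far from the background of this contrast. An unadjusted p under 0.05 was reached by 18 members, and by 38.6% of all probe sets. The members' median difference was 0.28 log2 units, against 0.00 over all probe sets tested. Without the 4 arrays of 129 male clones 3(1) and 5(1), 6 members passed (19.4%), against 16% of all probe sets, which is again not far from the background. The members' median was then 0.15, against 0.00 over all. The plot of strain differences gives each one.

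**Figure D3:**
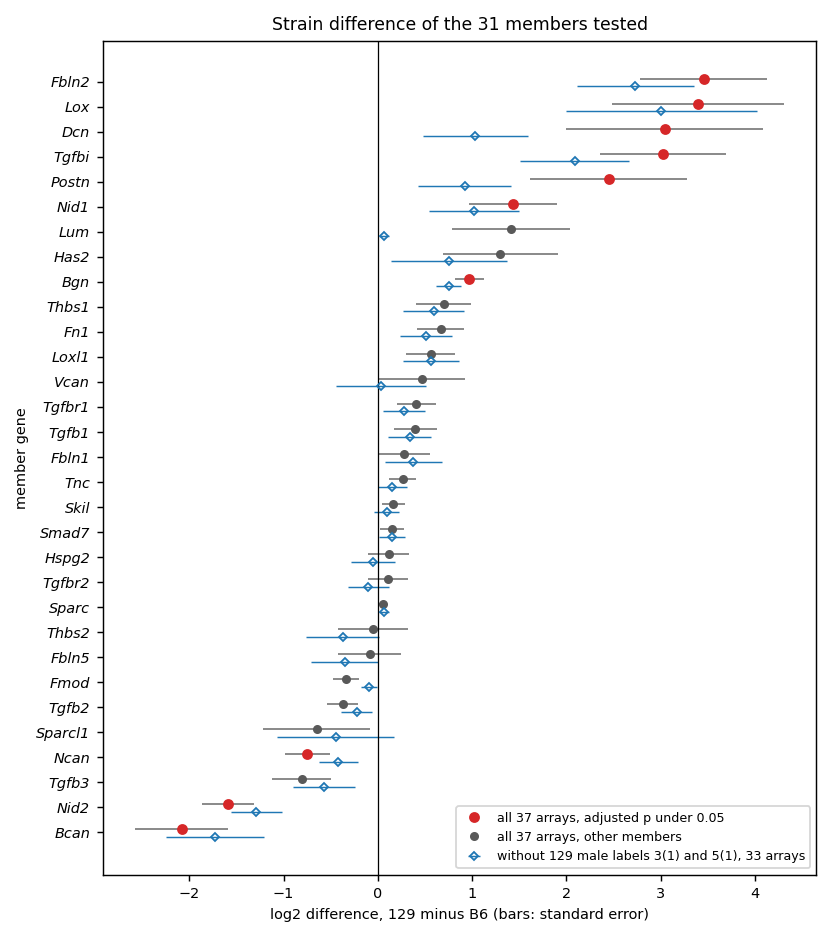
Difference 129 minus B6 in log2 units for each tested member, averaged over sex and plasmid, with bars for the standard error: large red points where the adjusted p was under 0.05, small grey points otherwise, and blue diamonds without the 4 arrays of 129 male clones 3(1) and 5(1). The 7 red points to the right are Fbln2, Lox, Dcn, Tgfbi, Postn, Nid1 and Bgn, and the 3 to the left are Bcan, Nid2 and Ncan.

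Among the matrix glycoproteins, Tgfbi, an integrin-binding protein named for its induction by TGF-beta, ran from 4.00 (lowest) over 7.94 (median) to 11.83 (highest) in 129, and from 2.90 over 4.10 to 8.92 in B6. It was 3.03 ± 0.669 log2 units higher in 129 (SE, n = 18 and 19; limma adjusted p = 0.00144). Of the 18 129 arrays 17 lay above the B6 median, though only 4 lay above every B6 array. Postn ranged over 2.40, 2.72 and 12.11 (lowest, median, highest) in 129 and over 2.34, 2.41 and 5.19 in B6, a difference of 2.45 ± 0.834 (adjusted p = 0.0304). It was above background on 8 of 18 129 arrays and 1 of 19 B6 arrays. Without the 4 arrays of clones 3(1) and 5(1), Postn was 0.92 higher in 129 (adjusted p = 0.20) and no longer passed, while Tgfbi still did (2.09).

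Over the 10 other settings of the fit, the adjusted p of Postn ran between 0.0269 and 0.199, and with clone labels as a random block it was 0.0502, which ends the call. The other glycoproteins missed the threshold. Fn1, the fibronectin gene, differed by 0.67 ± 0.252 (adjusted p = 0.0502), and by 0.78 (adjusted p = 0.023) without the 2 arrays that stand apart in signal or sex. Thbs1, which encodes the TGF-beta-activating thrombospondin 1, differed by 0.70 ± 0.294 (adjusted p = 0.0786), and by 0.79 (adjusted p = 0.029) without those 2 arrays. Over all 10 other settings their adjusted p ran between 0.00111 and 0.202 for Fn1 and between 0.00108 and 0.208 for Thbs1. Tnc (tenascin-C), Sparc, Sparcl1 (hevin, which promotes synapse formation) and Thbs2 differed by -0.65 to 0.26, with adjusted p between 0.185 and 0.935. Sparc's difference of 0.05 ± 0.0467 was also the one with the smallest error.

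Cross-linking and elastic fibre genes held the largest differences. Fbln2, which encodes the elastic fibre and basement membrane protein fibulin-2, had a lowest, median and highest value of 3.18, 7.61 and 10.98 in 129 and of 2.18, 3.01 and 7.80 in B6. It was 3.45 ± 0.670 log2 units higher in 129 (adjusted p = 0.000357), above background on 17 of 18 129 arrays and on 6 of 19 B6 arrays. With values under the background raised to it, the difference was 3.15 (adjusted p = 0.0006), and without the 4 arrays it was 2.73. Lox ranged over 4.19, 13.07 and 13.91 in 129 and over 3.56, 8.55 and 13.23 in B6, and was 3.40 ± 0.911 higher in 129 (adjusted p = 0.00711). The strains overlapped widely for Lox, yet 16 of 18 129 arrays lay above the B6 median. Loxl1, a related oxidase that acts on elastin (0.56, adjusted p = 0.107), Fbln1 (0.28, adjusted p = 0.483) and Fbln5 (-0.09, adjusted p = 0.871) did not pass.

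The nidogens, which link laminin to collagen IV in basement membranes, went opposite ways. Nid2 had 7.39, 9.65 and 10.86 as lowest, median and highest value in 129 and 10.09, 10.90 and 12.04 in B6, and was lower in 129 by -1.59 ± 0.274 (adjusted p = 8.48e-05). No 129 array reached the B6 median, and 11 of 18 lay below every B6 array. Nid1 ranged over 8.69, 11.66 and 13.15 in 129 and over 7.12, 10.03 and 12.38 in B6, a difference of 1.44 ± 0.467 (adjusted p = 0.0238). Without the 4 arrays Nid2 still passed (-1.29), while Nid1 did not (1.02, adjusted p = 0.14; 0.00115 to 0.144 over 10 other settings). With clone labels as a random block Nid1 missed the threshold too (1.34, adjusted p = 0.055). Hspg2, the perlecan gene, differed by 0.12 (adjusted p = 0.728).

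Of the small leucine-rich proteoglycans, Bgn (biglycan) had the smallest adjusted p of all members. It ranged over 12.26, 13.07 and 14.02 in 129 and over 11.50, 12.17 and 12.56 in B6, and was 0.97 ± 0.155 higher in 129 (adjusted p = 2.9e-05). All 18 129 arrays lay above the B6 median and 13 above every B6 array. Dcn ranged over 2.31, 2.39 and 14.30 in 129 and over 2.31, 2.35 and 5.72 in B6, a difference of 3.04 ± 1.04 (adjusted p = 0.0318) carried by 7 129 arrays above background, against 1 in B6. Without the 4 arrays Bgn still passed at 0.75, and Dcn did not, at 1.03 (adjusted p = 0.21; 0.0261 to 0.206 over 10 other settings). The random block for clone labels also ended the call of Dcn (2.90, adjusted p = 0.061). Lum (1.41, adjusted p = 0.0918) and Fmod (-0.34, adjusted p = 0.0794) missed the threshold, and were 0.07 and -0.09 without the 4 arrays, and all 19 B6 arrays and all 17 female arrays had Lum at background.

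Of the lecticans above background, brevican and neurocan were lower in 129 and versican did not pass. Bcan, the brevican gene, had 3.59, 8.66 and 11.18 as lowest, median and highest value in 129 and 8.59, 10.70 and 12.46 in B6, and was lower in 129 by -2.08 ± 0.493 (adjusted p = 0.00268). The ranges overlapped, and 9 of 18 129 arrays lay below every B6 array. Ncan, the neurocan gene, ranged over 10.59, 12.21 and 13.20 in 129 and over 11.69, 12.91 and 13.66 in B6, a difference of -0.75 ± 0.238 (adjusted p = 0.0211) that was -0.42 (adjusted p = 0.17; 0.00755 to 0.165 over 10 other settings) without the 4 arrays. Vcan (versican) differed by 0.47 (adjusted p = 0.473), and Has2, which encodes a hyaluronan synthase, by 1.30 (adjusted p = 0.116). Without the 4 arrays these differences were 0.03 and 0.76.

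No TGF-beta ligand, receptor or inhibitor among the members passed by its chosen probe set. Tgfb3 came nearest (-0.81 ± 0.310, adjusted p = 0.0535), and was -0.57 (adjusted p = 0.243) without the 4 arrays. It passed in 3 of 10 other settings. Tgfb2 followed (-0.37, adjusted p = 0.0832, and -0.22 without the 4 arrays). Its other probe sets gave -0.58 (adjusted p = 0.0148), -0.93 (0.00126) and -0.51 (0.121), of which the last did not pass. Tgfb1 was above background on only 4 of 37 arrays. The receptor genes Tgfbr1 and Tgfbr2 differed by 0.41 and 0.10, and the feedback inhibitors Smad7 and Skil by 0.15 and 0.16, with adjusted p between 0.148 and 0.751. Of the 22 further tested genes of ligand activation, receptors and SMADs, 4 were higher and 5 lower in 129 (median 0.01), and 1 and 3 without the 4 arrays. They included the regulator Ldlrad4 (1.79), which dampens TGF-beta signalling, the latent TGF-beta binding protein gene Ltbp1 (0.80) and Nrep (-1.52). Of 18 tested genes known to be induced by TGF-beta, 8 were higher and 0 lower (median 0.27), led by Plaur (2.59), Itga5 (1.93) and Ankrd1 (3.58), and 5 and 1 without the 4 arrays. Over all tested probe sets 10.6% were higher and 14.6% lower, and 16% passed in either direction without the 4 arrays. The lists were chosen with earlier results of these data known, so these counts are no test, and TGF-beta activity was not tested.

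Among 19 other elastic fibre, microfibril and basement membrane genes, 6 were higher and 2 lower in 129 (median 0.53), with Mfap5, a microfibril glycoprotein gene, at 4.09, Loxl4 at 1.24 and Col4a2 at 0.86. Among 20 other proteoglycan and hyaluronan genes, 3 were higher and 8 lower (median -0.28). The 3 named by smallest adjusted p were cell-surface heparan sulfate carriers, Sdc4 (-1.03), Sdc2 (-0.46) and Gpc6 (-0.67). Without the 4 arrays these lists counted 5 higher and 2 lower, and 2 higher and 6 lower. The shares over all tested probe sets were 10.6% higher and 14.6% lower, and 16% in either direction without the 4 arrays.

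Markers of other cells moved with strain as well. Fibroblast and meningeal markers were higher in 129 for 8 of 11 tested and lower for 0 (median 2.21), with Col3a1 5.43, Col1a1 3.02 and Col1a2 2.75 log2 units higher; without the 4 arrays the count was 4 and the median 0.78. The score of that list ranged over -1.69, 0.86 and 3.72 (lowest, median, highest) in 129 and over -1.78, -0.88 and -0.25 in B6. In each 129 group 1 or 2 of its 12 markers were at background on every array, against 6 in each B6 group. Astrocyte markers were lower in 129 for 6 of 14 and higher for 0 (median -0.70), and lower for 3 without the 4 arrays (median -0.58), among them Aqp4 (-0.93), Sox9 (-0.77) and Mlc1 (-0.99). Of 9 tested microglial markers 0 passed (median 0.66, and 1.00 without the 4 arrays). Cx3cr1, Trem2 and Itgam were at background on all 37 arrays, while Fcer1g and Cd68 were above it on all 37. Laptm5 and C1qb ran from background up to 12.08 and 12.04. The list's score was highest in 129 male vector 5(2) (4.27), 129 male vector 3(2) (3.38) and B6 female vector 5.1(1) (3.07). Microglial RNA was thus present in some cultures. Other lists moved too. Without the 4 arrays, 4 of 7 ependymal and choroid plexus markers were lower in 129 (median -1.71). So were 2 of 4 pericyte and smooth muscle markers, and of 4 neuron markers 2 were lower and 1 higher. Endothelial, oligodendrocyte lineage and dividing-cell markers had 0 called. Over all tested probe sets 10.6% were higher and 14.6% lower, or 16% called without the 4 arrays. The part of other cell types in the members' strain differences was not tested.

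The choice of probe set mattered for some members. Of the 31 tested, 21 had another tested probe set, 35 in all. For the 10 members that passed there were 12, all of the same sign, and 9 of these passed too. Of the 23 for members that had not passed, 7 passed, for Fn1 (2.21, adjusted p = 0.0209), Tnc (1.87, 0.0022), Thbs1 (2.52, 0.0042), Vcan (1.52, 0.0154), Fmod (-0.60, 0.0408) and Tgfb2 (-0.58, 0.0148, and -0.93, 0.00126). Another 4 had the opposite sign to the member's chosen set, for Thbs2, Smad7 and Hspg2.

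Sex was compared over 20 male and 17 female arrays, averaged over strain and plasmid. The female arrays include B6 female vector 5.1(1), whose sex markers go against its label, here and in the tests below. Tgfb3 read 11.52 on that array. Without both arrays that stand apart, 0 members passed, while the probe sets called rose from 82 to 260. None of the 31 members passed by limma, against 0.321% of all probe sets (0.27% higher and 0.0508% lower in males), and 7 had an unadjusted p under 0.05, against 18.1%. Tgfb3 had the smallest p, with 10.07, 11.38 and 12.71 as lowest, median and highest value in males and 8.69, 10.15 and 12.24 in females, a difference of 0.91 ± 0.310 (adjusted p = 0.148). Thbs2 ranged over 10.30, 12.24 and 13.95 in males and over 5.93, 11.43 and 13.03 in females (0.89 ± 0.369, adjusted p = 0.212). Its lowest value is the low-signal array 129 female vector 1(3), and without both arrays that stand apart the difference was 0.54 (adjusted p = 0.19). Dcn ranged over 2.31, 2.38 and 14.30 in males and over 2.31, 2.37 and 7.22 in females (2.41 ± 1.04, adjusted p = 0.229), and differed by 0.41 without the 4 bright 129 male arrays. Leaving out 129 female Cdca7l 1(3) brought Tgfb3 to 1.07 and past the threshold (adjusted p = 0.0378).

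Whether the strain difference differed between the sexes was tested as an interaction, 129 minus B6 in males less that in females. No member passed (0% of all probe sets), and 8 had an unadjusted p under 0.05, against 15.3% of all. Thbs2 averaged 12.74 ± 0.861 in 129 males and 11.74 ± 0.844 in B6 males (SD, n = 10 each), and 10.80 ± 2.00 in 129 females (n = 8) and 11.87 ± 0.578 in B6 females (n = 9). The interaction was 2.10 ± 0.738 (adjusted p = 0.200), and 1.41 (adjusted p = 0.22) without both arrays that stand apart. Hspg2 averaged 10.94 ± 0.562 in 129 males and 10.23 ± 0.658 in B6 males, and 10.03 ± 0.772 in 129 females and 10.51 ± 0.591 in B6 females (1.18 ± 0.437, adjusted p = 0.215). Postn averaged 7.08 ± 4.57 in 129 males and 2.43 ± 0.054 in B6 males, and 2.96 ± 0.823 in 129 females and 2.74 ± 0.924 in B6 females (4.39 ± 1.67, adjusted p = 0.223, and 1.34 without the 4 arrays). These means are far apart for Postn, but the 129 male SD shows that some clones carry them.

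The effect of Cdca7l was the study's main comparison. Averaged over strain and sex, 0 of 31 members passed, against 0.00782% of all probe sets (2 of 25579), and 0 members had an unadjusted p under 0.05, against 1.27% of all. Members' differences ran from -0.65 to 0.84 log2 units with a median of -0.04. By smallest p came Thbs2, with 11.11, 12.15 and 13.95 as lowest, median and highest value with Cdca7l and 5.93, 11.62 and 13.73 with vector (0.66 ± 0.369, adjusted p = 0.999). Without the low-signal vector array its difference was 0.31. Sparcl1 ranged over 7.75, 10.12 and 12.49 with Cdca7l and over 4.88, 9.95 and 12.80 with vector (0.84 ± 0.565). Tgfb1 was above background on 1 of 18 Cdca7l and 3 of 19 vector arrays (-0.31 ± 0.232). The plasmid groups overlapped for all 3, with the lowest Thbs2 and Sparcl1 values and the highest Tgfb1 value on vector arrays. The plot of Cdca7l differences gives every member.

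**Figure D4:**
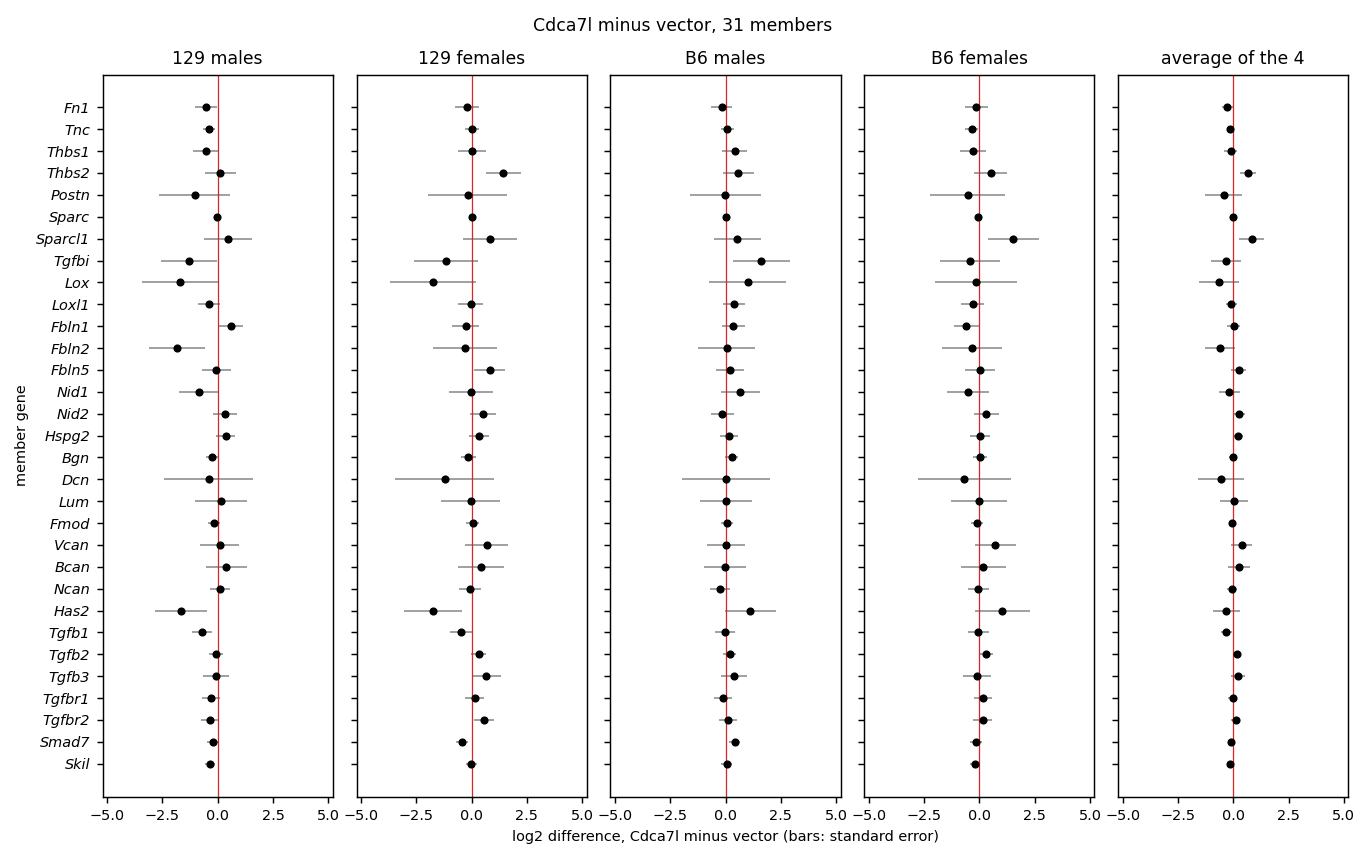
Difference Cdca7l minus vector in log2 units for each tested member, in each of the 4 strain and sex groups and averaged over them, with bars for the standard error. No difference had an adjusted p under 0.05, and the averages lie between -0.65 and 0.84.

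Within the 4 strain and sex groups, 0 of 31 members passed and 0 had an unadjusted p under 0.05, and no probe set of the table passed (0%; 503 had an unadjusted p under 0.05 in 129 females, 422 in 129 males, 142 in B6 females and 538 in B6 males). The members' median differences were -0.24 in 129 males, -0.01 in 129 females, 0.11 in B6 males and -0.05 in B6 females. The adjusted p of every member was close to 1 in each. Cdca7l itself, 3.87 to 5.10 log2 units higher with its plasmid, did not pass in any of these comparisons either (limma adjusted p between 0.157 and 0.99995). It passed only in the average over strain and sex (4.61, adjusted p = 1.25e-06). A count of 0 within a group therefore does not show that members were unaffected.

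In 129 males Tgfb1 read 2.04, 3.78, 1.99, 2.06 and 2.03 with Cdca7l and 5.37, 3.81, 2.04, 2.20 and 2.02 with vector (-0.71 ± 0.443). Skil read 12.25, 12.72, 11.89, 12.85 and 12.26 with Cdca7l and 12.95, 12.76, 12.78, 12.63 and 12.53 with vector (-0.34 ± 0.230). Fbln2 read 5.22, 10.98, 3.18, 10.67 and 6.37 with Cdca7l and 9.82, 10.08, 9.75, 8.22 and 7.75 with vector (-1.84 ± 1.28). For Fbln2, 2 of the Cdca7l arrays lay above all vector arrays and the other 3 below all of them, and the Tgfb1 values are mostly at background.

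In 129 females Thbs2 read 11.43, 11.26, 11.11 and 12.27 with Cdca7l and 11.38, 11.34, 5.93 and 11.65 with vector (1.44 ± 0.789, and 0.06 without the low-signal vector array). Smad7, the inhibitory SMAD, read 12.13, 12.50, 12.36 and 11.38 with Cdca7l and 12.47, 12.28, 13.01 and 12.29 with vector (-0.42 ± 0.276). Has2 read 7.62, 3.40, 5.68 and 4.46 with Cdca7l and 9.12, 6.95, 4.10 and 7.98 with vector (-1.75 ± 1.31). The groups overlapped for all 3 genes.

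In B6 males Smad7 read 11.68, 12.36, 12.05, 12.22 and 11.98 with Cdca7l and 12.51, 11.26, 11.53, 11.38 and 11.55 with vector (0.41 ± 0.247). Tgfbi read 4.10, 7.67, 4.23, 7.38 and 3.39 with Cdca7l and 4.95, 2.90, 3.48, 3.67 and 3.66 with vector (1.62 ± 1.28). Has2 read 5.97, 6.30, 6.58, 7.28 and 4.65 with Cdca7l and 5.83, 8.15, 3.45, 3.41 and 4.30 with vector (1.13 ± 1.17). For Smad7 all 5 Cdca7l arrays exceeded 4 of the 5 vector arrays, and the highest value of all was the remaining vector array.

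In B6 females Sparcl1 read 9.24, 11.67, 11.62 and 12.49 with Cdca7l and 8.13, 11.05, 11.36, 9.95 and 8.12 with vector (1.53 ± 1.15). Tnc read 13.77, 12.77, 13.09 and 13.10 with Cdca7l and 13.83, 13.21, 12.97, 13.77 and 13.82 with vector (-0.34 ± 0.296). Fbln1 read 5.81, 6.14, 5.67 and 5.26 with Cdca7l and 6.13, 6.32, 5.07, 7.22 and 6.86 with vector (-0.60 ± 0.567). The vector values of Fbln1 lay on both sides of the Cdca7l values, and those of Tnc and Sparcl1 overlapped them.

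Tests of the difference in effect also gave no call among members or in the whole table (0%). The effect of Cdca7l in males less that in females was 0.91 ± 0.559 for Fbln1, 0.37 ± 0.258 for Smad7 and -0.48 ± 0.425 for Tgfbr2, with 0 of 31 members at an unadjusted p under 0.05. The effect in 129 less that in B6 was -2.78 ± 1.23 for Has2 (unadjusted p = 0.0307, adjusted p = 1), -0.47 ± 0.258 for Smad7 and -1.82 ± 1.34 for Tgfbi. Microglial markers, of which 0 passed, had a median Cdca7l minus vector difference of -2.37 in 129 males, -0.28 in 129 females, 1.09 in B6 males and -1.66 in B6 females, and their part in the members' values was not tested.

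Some pairs of members varied together from clone to clone. Deviations from the group means were averaged over the arrays of each clone label and correlated over the 22 labels, with 100000 permutations of labels within strain and sex and adjustment over 465 pairs of members. At an adjusted p of 0.05, 131 pairs were called, 95 of them positive and 36 negative. An absolute r of at least 0.7 was reached by 62 pairs (13.3%), against 3.07% of all pairs of tested probe sets, and the median absolute r was 0.43 against 0.26. Without 129 male clones 3(1) and 5(1) 50 pairs were called, 41 positive and 9 negative. The median r of the members' pairs was then 0.08, against 0.19 with these clones. The shares at 0.7 include these clones, and also Lum, which passed the filter through them alone. They were not worked out without the clones, so they do not show that members vary together on the other arrays.

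**Figure D5:**
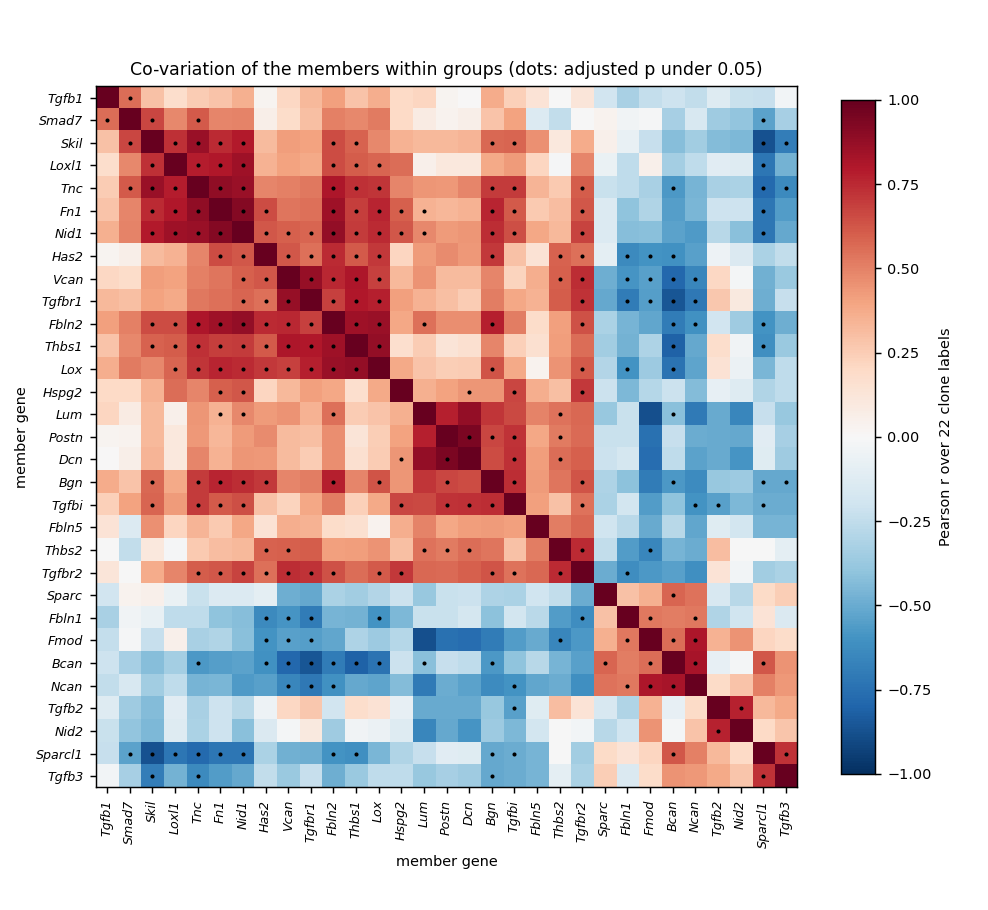
Pearson r between members over 22 clone labels, from deviations from the group means averaged within each label; genes are ordered by likeness, and dots mark an adjusted p under 0.05. Fn1, Tnc, Nid1, Fbln2, Lox and Thbs1 form a positive group, and Bcan and Sparcl1 correlate negatively with most of it.

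Fn1 and Nid1 had an r of 0.92 (Spearman rho 0.93, permutation adjusted p = 0.000775), 0.88 without the 2 labels farthest from the Fn1 median and 0.91 without clones 3(1) and 5(1). Fn1 and Tnc had an r of 0.88 (rho 0.91, adjusted p = 0.000775), and 0.84 without the 2 farthest labels. Thbs1 and Lox had an r of 0.88 (rho 0.82, adjusted p = 0.000821), and 0.80 without the 2 farthest. Fbln2 and Nid1 also had an r of 0.88 (rho 0.84, adjusted p = 0.000775), and 0.84 without the 2 farthest. Nid1 was positively linked to 15 members and negatively to 1, Fn1 to 13 and 1, Fbln2 to 13 and 3, and Tgfbr2 to 12 and 1. Without clones 3(1) and 5(1) these were 7 and 1 for Nid1, 7 and 1 for Fn1, 8 and 0 for Fbln2, and 1 and 0 for Tgfbr2.

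Of the 36 negative pairs, 19 held Sparcl1 or Bcan. Sparcl1 and Skil had an r of -0.87 (rho -0.88, permutation adjusted p = 0.000775), -0.87 without the 2 farthest labels and -0.86 without clones 3(1) and 5(1). Bcan and Tgfbr1 had an r of -0.86 (rho -0.87, adjusted p = 0.000821), -0.79 without the 2 farthest and -0.84 without the clones. Sparcl1 was negatively linked to 10 members and positively to 2, and Bcan to 9 and 4. Without clones 3(1) and 5(1), where 9 negative pairs were called, these were 5 and 1 for Sparcl1 and 3 and 1 for Bcan. Fbln5 was linked to 0 members.

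Pairs among Dcn, Postn and Lum rest on separate clusters of labels, so they are given within the 20 labels other than 129 male 3(1) and 5(1). There Postn and Dcn had an r of 0.83 (rho 0.50, permutation adjusted p = 0.119), which did not pass. Lum was below background on every array of these 20 labels, so its pairs with Dcn and Fmod could not be tested there.

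The members' deviations were also set against list scores over the same 22 labels (155 relations with adjusted permutation p-values). Of 31 members 14 correlated positively and 4 negatively with the fibroblast and meningeal score, among them Bgn (r 0.80, rho 0.75, adjusted p = 0.0102), Tgfbr1 (0.72, 0.84, 0.00155) and Ncan (-0.84, -0.85, 0.00155). At an unadjusted permutation p under 0.05 they were 19 positive and 5 negative, against 20.6% and 13.9% of all probe sets. Without clones 3(1) and 5(1) the adjusted counts were 6 and 1, including Tgfbr1 (0.89) and Lox (0.79), and the unadjusted ones 11 and 2, against 18.5% and 10.8% of all. With the astrocyte score 4 correlated positively, Bcan (r 0.86), Sparcl1 (0.86), Ncan (0.67) and Tgfb3 (0.52), and 12 negatively, among them Tgfbr1 (-0.78) and Thbs1 (-0.77). Unadjusted, these were 4 positive and 14 negative, against 17.9% and 22.5% of all probe sets, and without the clones 4 and 12, against 16.9% and 21.1%. Microglial scores correlated with 0 members, dividing-cell scores with 1 positively and 2 negatively, and the upper quartile of the array with 5 and 1. Whether cell makeup carries these correlations was not tested.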

How the data were processed

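The values of 37 Affymetrix arrays were used as the authors deposited them: log2 intensities per probe set, normalized with GCRMA in Partek 6.5 per the submitters' processing notes. They ran from 1.17 to 15.3. No further normalization was done. Of 45101 probe sets, 64 controls were left out, and the 25579 above the table's median on at least 4 arrays were tested. Gene symbols came from the platform's annotation, which gives 34958 probe sets 1 symbol, 932 several and 9211 none.

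An 8-group means model was fitted with limma 3.58.1 in R 4.3.3 (29 residual degrees of freedom, equal-weight contrasts, eBayes), and p-values were adjusted by Benjamini-Hochberg over all probe sets tested, with a threshold of 0.05. Python 3.11.15 was used for permutation tests. The test was tried on simulated data. Alternatives were array weights, eBayes with trend and robust, quantile normalization, other filters and probe set rules, clone labels as blocks and leaving out arrays. Members and gene lists were chosen with earlier results of these data known. Values over arrays are given for members past the threshold, or for the 3 with the smallest p where none passed, and at most 3 genes of another list are named.

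The labels call the isolates independent but do not say what a shared clone number means. Deviations of Cdca7l and vector arrays with the same number correlated in every pair in B6 (0.376 to 0.775). In 129 they did not for female clone 2(3) (0.0610) and male clone 3(3) (-0.0887), and did for the others (0.416 to 0.716). Deviations of arrays with different numbers were not compared, so this check does not show that a shared number pairs samples. The nearest array to a given one shared its number in some cases, such as B6 female 3(3) (correlation 0.995). In others it did not: B6 male vector 5.6(1) and 2(2) were nearest to each other (0.990), as were 129 male vector 3(1) and 5(1) (0.990). Whether the labels are independent of one another was not tested. The label is an alternative in the group comparisons and the unit in the correlations between members. The labels give no batch, slide or scan date. RefSeq promoters are from GRCm38.p6.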

Additional observations from a re-analysis of the deposited data

Results flagged for a closer look

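Within groups of 4 or 5 arrays, 248 combinations of a tested member and a group were searched for 1 array whose gap to its neighbour took most of the group's range (Dixon's 95% limit). 29 had one, or 11.69%, where the limit is set to flag about 1 in 20 samples of a normal spread. The share over all tested probe sets was not worked out, so it is not known whether 11.69% is unusual in this table. All values are log2 intensities.

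The low-signal array 129 female vector 1(3) held 5, all below the rest of its group: Thbs2 at 5.93, Fbln5 at 6.72, Nid2 at 7.39, Tgfb2 at 9.88 and Tnc at 12.63. In the same group Dcn was high in 2(3), at 7.22, Postn in 2(1), at 4.48, and Tgfb1 in 2(1), at 3.89. Among 129 females with Cdca7l, Postn was high in 2(1), at 4.06, Fbln5 was low in 2(3), at 9.87, Skil was low in 1(3), at 11.66, and Tgfb2 was low in 4(1), at 11.46. Postn was thus high with both plasmids in clone 2(1).

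B6 female vector 5.1(1), whose sex markers go against its label, held 3: Postn high at 5.19, Dcn high at 5.72 and Vcan low at 6.05. Others in that group were Thbs2 in 3(3) at 12.16, Tgfb1 in 6(3) at 2.21 (below background) and Smad7 in 4(5) at 11.50. Bcan was low in B6 female Cdca7l 6(3), at 8.93.

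In B6 males clone 4(3) was high with both plasmids for Fbln2, at 5.61 with Cdca7l and 6.58 with vector, and for Tgfb1, at 2.71 with Cdca7l and 2.96 with vector, both below background. Smad7 was high in vector 4(3), at 12.51, Hspg2 was low in Cdca7l 3(5), at 9.04, and Lum was highest in vector 3(5), at 2.66, below background. In 129 males Lox was low in Cdca7l 1(4), at 6.00, Tgfb1 was high in Cdca7l 3(1), at 3.78, and Smad7 was high in vector 3(3), at 12.71.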

How the results depend on the processing

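The 10 members called in 129 minus B6 became 18 with array weights and 6 without 129 male clones 3(1) and 5(1) (an alternative added after seeing the data), and 9 to 14 when each array was left out in turn. Bgn, Nid2, Fbln2, Tgfbi, Bcan and Lox passed in 10 of 10 other settings and in all 37 left-out fits. A random replicate block for clone labels (correlation 0.409) left 7 called: Dcn (adjusted p = 0.061), Postn (0.050) and Nid1 (0.055) lost the call. Without a filter on dim probe sets Postn and Dcn lost it too. Dcn also lost it in 5 of 37 left-out fits (highest adjusted p 0.0521), without 129 female vector 2(3) or any 1 of the 4 arrays of 129 male clones 3(1) and 5(1), and Postn in 1 (0.0512), without 129 female Cdca7l 2(1). Male minus female had 0 called, 3 with array weights, and 0 to 1 with an array left out. Strain by sex had 0, and 5 with array weights. Every Cdca7l count was 0 in all settings, the paired fits with a fixed or random replicate block included. Pairs called numbered 131, against 240 over 37 arrays without averaging, 50 without the 129 male clones, and 69 (without 129 male Cdca7l 1(4)) to 167 (without 129 male vector 5(1)) with an array left out. Over the whole table, 129 minus B6 called 6456 probe sets, 12132 with array weights, 4249 with the random block, 4088 without the 129 male clones and, counting genes, 3283. Male minus female called 82, with 6437 under array weights, 19 with the random block, 33 without the 129 male clones, 260 without both arrays that stand apart and 35 to 947 with an array left out. No value reversed its direction past the threshold, and the cause of these changes was not tested.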
